A study of Mus musculus with 30 samples.

Results

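The Fos and Jun proteins are the subunits of the transcription factor AP-1, and 6 of their genes, Fos, Fosb, Fosl2, Jun, Junb and Jund, were described here in the forebrain of mice given an antipsychotic drug. The members were chosen by name: every probe set of the array whose platform annotation carries exactly one of these symbols was taken, which gave 7 of 22626 probe sets and 6 of 12393 named genes, 2 probe sets for Jun and 1 for each of the other genes. Expression was measured with Affymetrix MOE430A arrays, on which a probe set is a group of short probes against a transcript, in 30 male C57BL mice with 1 array per mouse and no pooling. The 10 control mice received no drug, 10 mice received clozapine at 12 mg/kg/day and 10 received haloperidol at 1.6 mg/kg/day, both in the drinking water for 12 weeks. All mice were housed singly, and their age is labelled as 4 weeks. The tissue was the right forebrain, a hemisphere freed of the cerebellum, although the tissue label of the same samples says left. The haloperidol protocol names clozapine beside its dose. Each drug was given at 1 dose, and a hemisphere mixes many regions and cell types, so fewer cells of a type and less RNA per cell cannot be told apart.

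AP-1 is a dimer: Fos proteins bind DNA only when joined to a Jun protein, whereas Jun proteins can also pair with each other. Fos, Fosb and Junb are immediate early genes, switched on in neurons within minutes of synaptic activity by factors such as CREB and SRF, while Jund is held at a steadier level in most tissues. Blockade of dopamine D2 receptors, the main action of haloperidol, is known to induce Fos in the striatum after a single dose, and long-lived isoforms of the Fosb protein build up there under repeated stimulation. Clozapine binds many receptor types and is known for a more restricted Fos response.

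The starts of Fos, Jun and Junb are shown because these 3 inducible members passed the minimum level on the arrays and were compared pair by pair on the same arrays. Each sequence is a RefSeq promoter window of GRCm38.p6, 250 bases before to 50 bases after the annotated start, read 5′ to 3′ on the strand of the gene. Capitals mark the core of the CREB site, TGACG, and a variant site of the Jun promoter, TGACATCA. They also mark the TATA box, TATAA, and the GC box, GGGCGG read on either strand. The windows lie at chr12:85473640-85473939 on the plus strand for Fos, at chr4:95052173-95052472 on the minus strand for Jun and at chr8:84978699-84978998 on the minus strand for Junb.
Fos: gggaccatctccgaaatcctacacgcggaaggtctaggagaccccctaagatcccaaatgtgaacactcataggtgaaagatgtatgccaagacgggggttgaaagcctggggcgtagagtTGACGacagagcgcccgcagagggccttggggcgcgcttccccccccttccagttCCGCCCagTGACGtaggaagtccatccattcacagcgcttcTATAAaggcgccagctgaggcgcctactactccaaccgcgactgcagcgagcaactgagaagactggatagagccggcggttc
Jun: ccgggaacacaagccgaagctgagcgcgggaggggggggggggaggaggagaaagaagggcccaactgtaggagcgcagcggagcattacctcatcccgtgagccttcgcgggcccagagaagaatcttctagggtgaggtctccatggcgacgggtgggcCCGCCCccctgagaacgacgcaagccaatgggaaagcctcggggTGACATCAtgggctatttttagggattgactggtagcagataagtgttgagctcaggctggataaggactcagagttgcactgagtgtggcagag
Junb: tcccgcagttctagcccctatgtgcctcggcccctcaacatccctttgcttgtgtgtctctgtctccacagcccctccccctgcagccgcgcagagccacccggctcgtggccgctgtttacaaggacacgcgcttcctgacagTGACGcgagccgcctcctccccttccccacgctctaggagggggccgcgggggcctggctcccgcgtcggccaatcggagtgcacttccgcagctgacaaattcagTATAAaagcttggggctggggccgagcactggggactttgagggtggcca
All 6 members had a window. The Fos window holds TGACG at 129 and at 66 bases before the start, a GC box at 74 and TATAA at 33 bases before it. The Jun window holds TGACATCA at 45 and a GC box at 89 bases before the start. In the Junb window TGACG begins 106 bases before the annotated start and TATAA begins 0 bases from it. Of 32851 windows of this length, searched on both strands with overlaps allowed, 20.8% hold TGACG, 3.62% hold TGACATCA, 24.9% hold TATAA and 35.7% hold GGGCGG. The full CREB site TGACGTCA (in 1.79% of windows), the AP-1 site TGANTCA (in 7.81%) and the CArG box bound by SRF (in 1.63%) were matched in none of the 6 members' windows. TGACG, which is part of TGACGTCA, and TGACATCA were added to the search after the windows had been seen. A match is a description of the letters and not evidence of binding. Bases more than 250 before the start were not searched, so a missing match does not mean that the gene lacks the site.

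Values were log2 expression values, so a difference of 1 is a doubling. Array medians ran from 4.63 to 4.88. When arrays were clustered blind to treatment, by correlation over all tested probe sets, 11 formed a cluster A, 8 formed B and 7 formed C, while 4 joined none. A was made up of 3 controls, 3 clozapine and 5 haloperidol mice, B of 4, 1 and 3, and C of 2, 5 and 0. Control 1 and haloperidol 7 had the largest excess of 3′ over 5′ signal of the Gapdh and Actb control probes, a sign of shortened RNA, at 4.09 and 2.45, against a mean of 0.64 ± 0.11 (SD, n = 11) in A, 0.60 ± 0.15 (SD, n = 8) in B and 1.06 ± 0.22 (SD, n = 7) in C. Control 1, haloperidol 2 and haloperidol 7 are called the 3 outlying arrays. Clozapine 7 also joined no cluster, with a 3′ excess of 1.24 beside 1.10 on haloperidol 2, but it is not counted among them. Fits without the 3 outlying arrays thus leave out no clozapine array and keep clozapine 7, which held the lowest clozapine value of Junb, 5.48. All 6 of the neuronal marker genes had a mean of at least 4, as did 6 of 6 astrocyte, 5 of 5 oligodendrocyte and 6 of 6 microglial markers on the array. None of the 3 blood and 5 pituitary markers on the array reached it.

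None of the tested members passed the threshold in any comparison after adjustment over all probe sets. In the limma fit of all 30 arrays, 12944 probe sets with a mean of at least 4 were tested, 5 of the 7 member probe sets among them. With Benjamini-Hochberg adjustment, 0 of the 5 passed an adjusted p of 0.05 in any comparison, where 0% of all tested probe sets passed in clozapine against control, 0% in haloperidol against control and 0% in clozapine against haloperidol. At an unadjusted p under 0.05, 0 of 5 were reached for clozapine against control beside 4.35% of all probe sets, 1 of 5 for haloperidol against control beside 2.3%, and 0 of 5 for clozapine against haloperidol beside 3.14%. The 1 was Jund. Permutation tests of single probe sets, unadjusted, two-sided and including Fosb and Fosl2, fell under 0.05 in 2 of 21 comparisons, both of Jund. The groups overlapped in all 21. Both the permutation test and the overlap were computed for the members alone, so neither count has a share over all probe sets beside it. The drug groups share the same 10 controls.

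**Figure D1:**
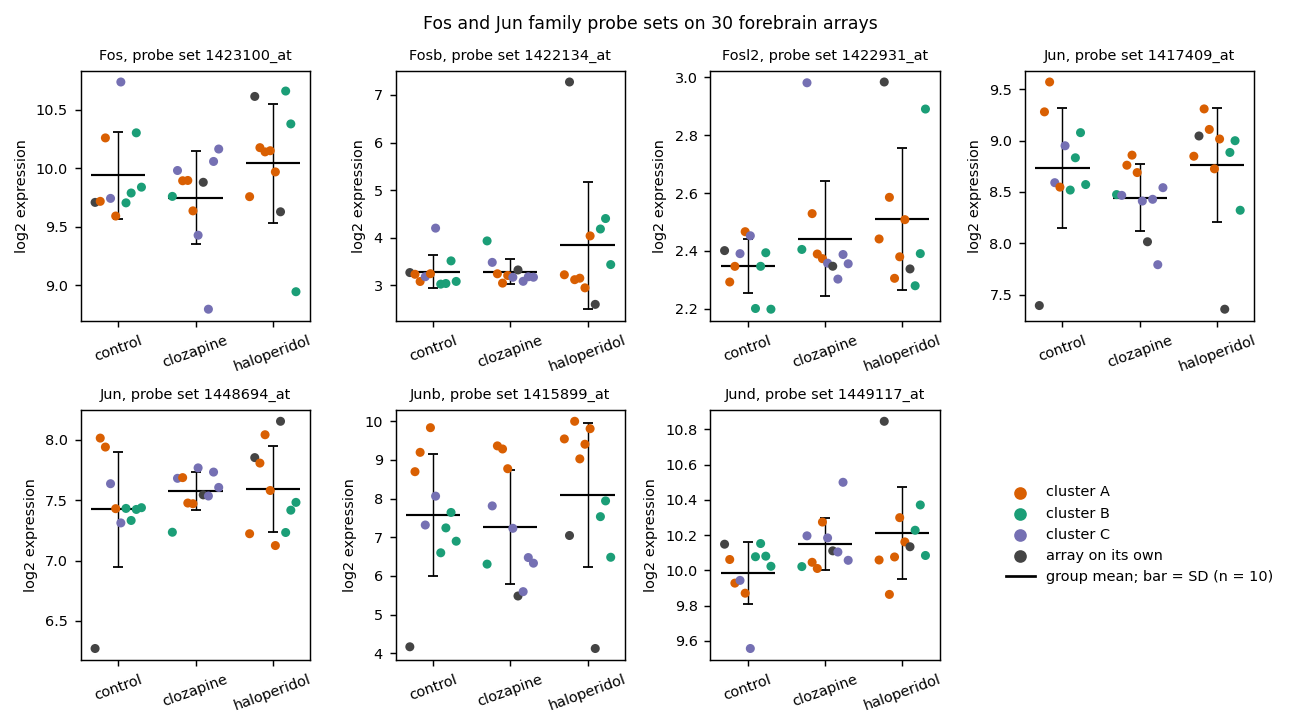
Log2 expression of the 7 Fos and Jun family probe sets on 30 arrays, 1 point per mouse in the order of the replicate numbers, coloured by array cluster, with the group mean (horizontal line) and SD (bar, n = 10); each panel has its own vertical scale. Junb spreads from 4.12 to 10.00 with all cluster A arrays at the top, whereas Jund stays between 9.56 and 10.85.

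Fos, the founding member and the most widely used marker of recent neuronal activity, was strongly detected in every group. Control arrays ran from 9.59 to 10.74 with a median of 9.77, clozapine arrays from 8.80 to 10.16 with a median of 9.89, and haloperidol arrays from 8.95 to 10.66 with a median of 10.14. The 3 groups overlapped almost fully, and the lowest arrays of both drug groups lay below every control. The means were 9.94 ± 0.37, 9.75 ± 0.39 and 10.04 ± 0.51 (SD, n = 10 each). Clozapine minus control was -0.19 (SE 0.19, adjusted p = 0.9997 by limma) and haloperidol minus control was 0.10 (SE 0.19, adjusted p = 0.9999). Clozapine minus haloperidol was -0.29 (SE 0.19, 95% confidence interval -0.68 to 0.09, adjusted p = 0.965), and 8 of 10 clozapine arrays lay below the haloperidol mean. The interval includes 0.

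Fosb, whose full-length and truncated products both pair with Jun proteins, lay near the lower end of the scale, with a mean of 3.47 over all arrays, and was left out of the fit by its mean below 4. It reached 4 on 5 of 30 arrays, of which 4 were haloperidol and 1 was control. Controls ran from 3.02 to 4.20 with a median of 3.21, clozapine arrays from 3.05 to 3.93 with a median of 3.19, and haloperidol arrays from 2.60 to 7.27 with a median of 3.33. The group medians were close together, and only haloperidol 2 and haloperidol 9 lay above every control. Haloperidol 2 stood at 7.27, haloperidol 9 at 4.40, haloperidol 8 at 4.18 and haloperidol 6 at 4.04. The highest control, control 6 at 4.20, lay above haloperidol 8 and haloperidol 6. The difference of haloperidol from control was 0.55 (SE 0.35, permutation p = 0.227), and 5 of 10 haloperidol arrays lay above the control mean. Without haloperidol 2 it was 0.17 (permutation p = 0.459), and without the 3 outlying arrays 0.27.

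Other genes also stood apart on haloperidol 2, the array with the highest Fosb. Its mean over the choroid plexus markers was 7.07, against at most 6.20 on any control or clozapine array, with 3 of 5 markers on the array at a mean of at least 4 and Aqp1 and Otx2 below it. Its mean over the olfactory bulb markers was 6.68, against at most 5.61 in controls and 5.77 in clozapine, with 4 of 5 at a mean of at least 4 and Tbx21 below it. Hspb1, a small heat shock protein, was at 8.65 there and at most 6.49 on control and clozapine arrays. The part of these in the Fosb value was not tested.

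Fosl2, which encodes the Fos relative Fra-2, stayed below 4 on all 30 arrays. Means were 2.35 ± 0.093 in control, 2.44 ± 0.20 in clozapine and 2.51 ± 0.24 in haloperidol (SD, n = 10 each). Haloperidol minus control was 0.16 (SE 0.085, permutation p = 0.0631), with 7 of 10 haloperidol arrays above the control mean. Values this low lie in the range where GCRMA places probe sets near background, so they give no level of the transcript.

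Jun, the main partner of Fos in AP-1 and a target of the JNK kinases, was read by 2 probe sets that did not give the same picture. On 1417409_at the controls ran from 7.39 to 9.57 with a median of 8.71, clozapine from 7.79 to 8.86 with a median of 8.47, and haloperidol from 7.36 to 9.31 with a median of 8.94. No clozapine array exceeded 8.86, whereas the upper arrays of the other groups did, and the lowest control and haloperidol values came from control 1 and haloperidol 7. Means were 8.73 ± 0.59, 8.44 ± 0.33 and 8.76 ± 0.56 (SD, n = 10 each). The difference of clozapine from control was -0.29 and that from haloperidol -0.32 (both SE 0.22, adjusted p = 0.9997 and 0.965 by limma), while haloperidol minus control was 0.03.

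Of the 3 outlying arrays, control 1 and haloperidol 7 moved the Jun differences of clozapine on 1417409_at most. Without haloperidol 2, clozapine minus control stayed at -0.29 and clozapine minus haloperidol was -0.29. Clozapine minus control went to -0.44 without control 1 (SE 0.20, unadjusted p = 0.0331, adjusted p = 0.726 by limma), and clozapine minus haloperidol to -0.47 without haloperidol 7 (SE 0.19, unadjusted p = 0.0198, adjusted p = 0.416). Without the 3 outlying arrays, clozapine minus control was -0.44 (SE 0.15, unadjusted p = 0.00768, adjusted p = 0.311 by limma) beside 11.4% of all tested probe sets at an unadjusted p under 0.05, and clozapine minus haloperidol was -0.46 (SE 0.16, unadjusted p = 0.00709, adjusted p = 0.196) beside 17.8%. With the 3′ excess as a covariate, clozapine minus control was -0.36 (SE 0.16, unadjusted p = 0.0339, adjusted p = 0.566 by limma), beside 8.26% of probe sets. Within clusters the same difference was -0.36 in A (3 against 3 arrays), -0.28 in B (1 against 4) and -0.44 in C (5 against 2). The sign was the same in each of the 3 clusters on this probe set.

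On 1448694_at, the second Jun probe set, the direction was not shared. Controls ran from 6.27 to 8.01, clozapine from 7.23 to 7.77 and haloperidol from 7.12 to 8.15, with medians of 7.43, 7.57 and 7.53. The lowest control was again control 1, while haloperidol 7, the lowest haloperidol array on the other probe set, was here the highest. Here clozapine minus control was 0.15 (SE 0.16, adjusted p = 0.9997 by limma) and haloperidol minus control 0.17 (SE 0.16, adjusted p = 0.9999). Without control 1 these were 0.023 and 0.041. Within clusters, clozapine minus control was -0.25 in A, -0.17 in B and 0.19 in C. Over the arrays of a cluster, with the means of whole groups removed, the 2 Jun probe sets correlated at r = 0.60 in A, -0.22 in B and -0.57 in C. A statement about Jun therefore holds for a probe set and not for the gene.

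Junb, an immediate early Jun protein that often restrains Jun at shared targets, was the most variable member. Controls ran from 4.17 (control 1) to 9.84 with a median of 7.48, clozapine from 5.48 to 9.36 with a median of 6.85, and haloperidol from 4.12 (haloperidol 7) to 10.00 with a median of 8.48. Every group spanned both low and high arrays, and the highest of all arrays lay 58.9-fold above the lowest. Its residual SD within groups was 1.64, against a median of 0.44 over all tested probe sets, and 145 of 12944 probe sets had a larger one. Means were 7.57 ± 1.58, 7.26 ± 1.47 and 8.09 ± 1.86 (SD, n = 10 each). For Junb, clozapine minus control was -0.30 (SE 0.70, adjusted p = 0.9997 by limma), haloperidol minus control 0.53 (SE 0.70, adjusted p = 0.9999) and clozapine minus haloperidol -0.83 (SE 0.70, 95% confidence interval -2.25 to 0.60, adjusted p = 0.965).

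The Junb level followed the array clusters more than the drug. All 11 arrays of cluster A read 8.70 or more, and all 19 other arrays read 8.06 or less. Cluster means were 9.36 ± 0.42 in A (SD, n = 11), 7.08 ± 0.60 in B (n = 8) and 6.97 ± 0.88 in C (n = 7). Over the 26 arrays of these clusters, 79.4% of the Junb variance lay between clusters, against a median of 40.8% over all tested probe sets, and 828 of 12944 had more. The share was 34.6% and 21.6% for the Jun probe sets, 12.9% for Fosb, 2.89% for Jund, 2.56% for Fosl2 and 0.697% for Fos. The clusters were made from all genes, so these shares are a description with no test.

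Marker levels moved with the same clusters. The mean over the 6 neuronal markers was 10.65 in A (10.41 to 10.86), 11.14 in B (11.11 to 11.22) and 10.64 in C (10.35 to 10.86). The mean over the 5 oligodendrocyte markers on the array was 10.77 in A (10.55 to 10.99), 11.13 in B (11.03 to 11.26) and 11.13 in C (10.90 to 11.42). Microglial markers stood at 7.81, 7.68 and 7.60. The neuronal and the oligodendrocyte markers both set A below B with no overlap, and in both A and C overlapped. The part of any of these markers in the Junb values was not tested.

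Drug differences in Junb had the same sign within every cluster that allowed them. Clozapine minus control was -0.10 in A, -0.79 in B and -1.002 in C, clozapine minus haloperidol -0.42 in A and -1.01 in B, and haloperidol minus control 0.31 in A and 0.22 in B. B holds a lone clozapine array and C no haloperidol array. With the array cluster as a block, a fit in which the 4 arrays on their own carry no weight, clozapine minus control was -0.58 (SE 0.28, unadjusted p = 0.0472, adjusted p = 0.713 by limma) beside 6.93% of all probe sets at an unadjusted p under 0.05. Clozapine minus haloperidol was -0.73 (SE 0.31, unadjusted p = 0.0244, adjusted p = 0.814) beside 5.89%. Without the 3 outlying arrays the latter was -1.45 (SE 0.58, unadjusted p = 0.0190, adjusted p = 0.223 by limma), and without haloperidol 7 alone -1.27. Haloperidol minus control was 0.15 without control 1, 0.97 without haloperidol 7, 0.13 with the 3′ excess as a covariate and 1.18 with array weights. Clozapine minus control was -0.68 without control 1 and -0.15 with array weights. In none of these fits did Junb pass the adjusted threshold.

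Jund, the broadly expressed Jun protein that is least tied to acute stimulation, was the steadiest of the tested members. Controls ran from 9.56 (control 6) to 10.15 with a median of 10.04, clozapine from 10.01 to 10.50 with a median of 10.11, and haloperidol from 9.86 to 10.85 (haloperidol 2) with a median of 10.15. Most drug arrays lay above the control mean, and haloperidol 3 at 9.86 lay below 9 of 10 controls. Means were 9.98 ± 0.18, 10.15 ± 0.15 and 10.21 ± 0.26 (SD, n = 10 each), and 3.99% of all tested probe sets had a smaller residual SD than its 0.20.

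Jund was higher than control in both drug groups by a small amount that did not pass the adjusted threshold. All 10 of 10 clozapine arrays and 9 of 10 haloperidol arrays lay above the control mean. Clozapine minus control was 0.17 (1.12-fold, SE 0.10, unadjusted p = 0.113, adjusted p = 0.9997 by limma; permutation p = 0.0238). Haloperidol minus control was 0.23 (1.17-fold, SE 0.10, unadjusted p = 0.0329, adjusted p = 0.9999 by limma; permutation p = 0.0217). Limma pools the spread of a probe set over the 3 groups, and haloperidol had the largest SD of Jund, 0.26. It also draws that spread towards that of all probe sets, which raises the SE of a steady one. The permutation test uses only the values of the 2 groups compared. The part of each in the p-values was not tested. Clozapine minus haloperidol was -0.06 (SE 0.10, 95% confidence interval -0.27 to 0.15), and this sign turned under several settings. Both drug groups were set against the same controls, which include the low control 6.

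The Jund difference was also read within clusters and without haloperidol 2. In A clozapine minus control was 0.16, in B it was -0.06, where a lone clozapine array stood against 4 controls, and in C it was 0.46, where the 2 controls include control 6. Haloperidol minus control was 0.14 in A and 0.14 in B. Without haloperidol 2, haloperidol minus control was 0.16 (SE 0.09, unadjusted p = 0.0771, adjusted p = 0.999 by limma; permutation p = 0.0451). With the cluster as a block the differences were 0.23 (SE 0.09, unadjusted p = 0.0198, adjusted p = 0.711) for clozapine and 0.19 (SE 0.09, unadjusted p = 0.0507, adjusted p = 0.99998 by limma) for haloperidol, the latter beside 4.24% of all probe sets at an unadjusted p under 0.05. With array weights they were 0.097 and 0.093 (SE 0.074 and 0.076).

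**Figure D2:**
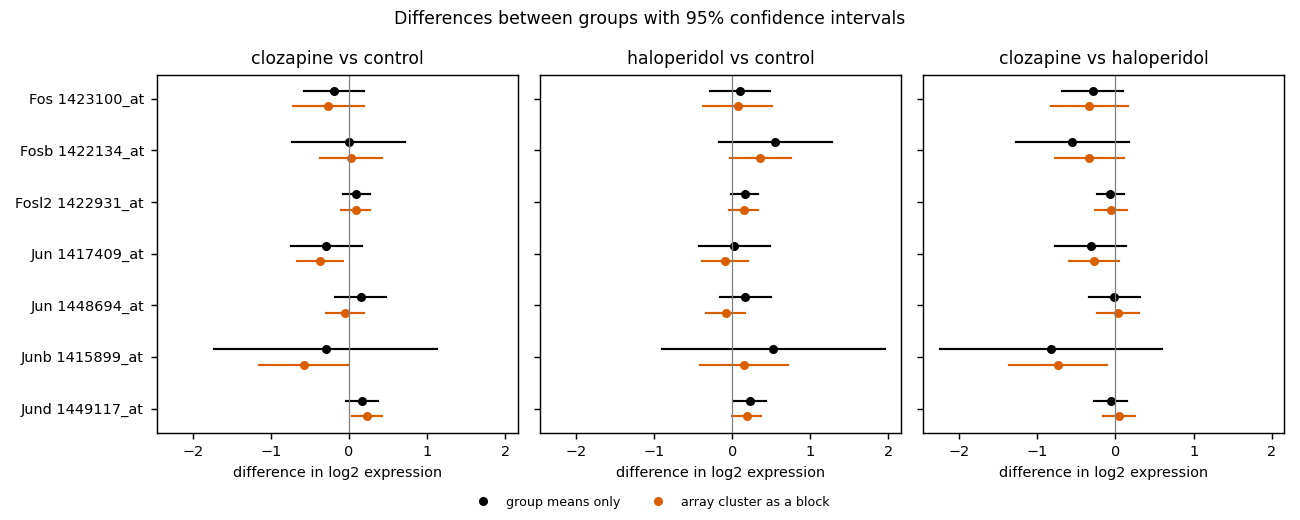
Differences in log2 expression between groups for each Fos and Jun family probe set, with 95% confidence intervals from limma, in the fit of group means (black) and with the array cluster as a block (orange). Junb has the widest intervals, -1.73 to 1.13 for clozapine against control in black, and the black interval of Jund in haloperidol against control, 0.02 to 0.44, lies above 0.

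The members were next compared with each other over arrays. Since the arrays fall into clusters, Pearson r and Spearman rho were computed within A, B and C. The 6 pairs of Fos, Jun (1417409_at), Junb and Jund gave 18 relations. Permutation p-values (exact in B and C) were adjusted by Benjamini-Hochberg over the 18. Values were centred on the mean of all arrays of a group, not of its arrays in the cluster. Group offsets within a cluster can thus remain in r, and the shuffles ran across groups. The 3 outlying arrays, which lie in none of the clusters, therefore moved r through the group means. Without them Jun and Junb went from -0.17 to 0.10 in A and from 0.93 to 0.88 in B, and Junb and Jund from 0.77 to 0.50 in B. Jun and Junb correlated in B, with r = 0.93 (n = 8, exact p = 0.00134, adjusted 0.0241) and rho = 0.95 (exact p = 0.00114, adjusted 0.0205). Leaving out the 2 arrays farthest from the median of Jun gave r = 0.79. In A the same pair gave r = -0.17 (n = 11, permutation p = 0.628, adjusted 0.724) and in C r = 0.31 (n = 7, exact p = 0.529, adjusted 0.724). The difference between clusters was not tested. With 1448694_at in place of 1417409_at, r in B was 0.11, so the relation holds for one of the Jun probe sets.

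Fos and Jun gave r = 0.86 in B (n = 8, exact p = 0.00556, adjusted 0.050; rho = 0.86) and 0.88 without the 2 arrays farthest from the median of Fos. In A they gave r = 0.62 (n = 11, permutation p = 0.0423, adjusted 0.127), which fell to 0.31 without the 2 farthest arrays. In C they gave r = 0.09 (n = 7, exact p = 0.820, adjusted 0.868). Fos and Junb gave r = 0.80 in B (n = 8, exact p = 0.0185, adjusted 0.0943), 0.01 in A and 0.59 in C. Jun and Jund gave r = -0.87 in C (n = 7, exact p = 0.0262, adjusted 0.0943), which fell to -0.19 without the 2 farthest arrays, and so rests on those. Of the 18 relations, 1 passed an adjusted p of 0.05.

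**Figure D3:**
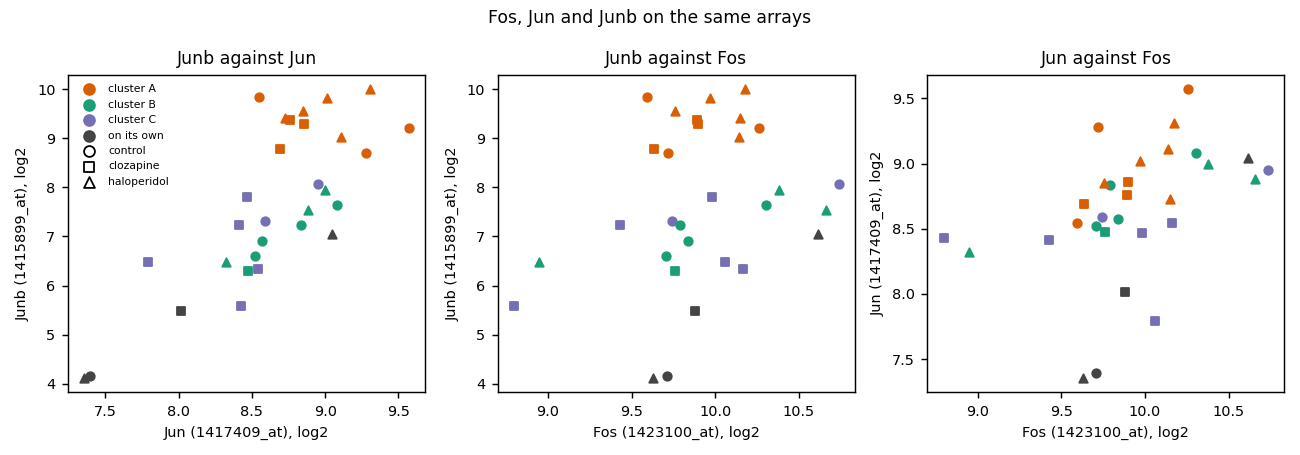
Log2 expression of Junb against Jun, Junb against Fos and Jun against Fos on 30 arrays, coloured by array cluster and shaped by group. The cluster A arrays form a band at Junb of 8.70 and above over a wide range of Jun and Fos, and in cluster B Junb rises with Jun.

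The genes whose pattern was most like Fos were other activity-induced genes. Over the 30 arrays with group means removed, and as a description, the highest r among named genes were 0.80 for Dusp1, a phosphatase that switches off MAP kinases, 0.72 for Arc, a regulator of synaptic strength, and 0.65 for Nr4a1, a nuclear receptor of the immediate early response. All 3 stayed positive within each cluster: Dusp1 gave 0.78 in A, 0.97 in B and 0.79 in C, Arc gave 0.50, 0.92 and 0.76, and Nr4a1 gave 0.59, 0.87 and 0.71. Haloperidol 2 was the highest haloperidol array for all 3, at 9.96 for Dusp1, 10.84 for Arc and 10.54 for Nr4a1. Without the 3 outlying arrays the values were 0.77, 0.76 and 0.71.

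No gene of the immediate early list was among the 3 most like any other member. The genes most like Junb were Napb at r = 0.95, Fam222b at 0.94 and Ncald, a neuronal calcium sensor, at 0.94, and within cluster B these fell to -0.09, 0.27 and 0.18. The genes most like Jun (1417409_at) were Psmd4, a proteasome subunit, at 0.87, the potassium channel gene Kcnj4 at 0.86 and Extl3 at 0.85, with Psmd4 at -0.14 in B. The genes most like Jund were Gstp1, a glutathione transferase, at 0.79, Trmt112 at 0.76 and the presenilin gene Psen2 at 0.75, all positive in A, B and C. Fosb was most like Hspb1 at 0.88, which fell to 0.59 without the 3 outlying arrays, then Slc25a29 at 0.87 and Pgpep1 at 0.86, which fell to 0.37 and 0.40. Within cluster C Hspb1 gave -0.33, Slc25a29 -0.25 and Pgpep1 0.64. Fosl2 was most like Nsun5 at 0.75, Ldlrad4 at 0.70 and Eif4ebp2, a repressor of translation, at 0.64.

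Against a list of 22 tested immediate early genes that holds no member, Fos had a positive median r in all 3 clusters. Its median r with the 22 was 0.40 in A, 0.34 in B and 0.51 in C, where its median over all tested probe sets was 0.10, -0.01 and -0.07. An r over 0.5 was reached by 7, 9 and 13 of the 22, beside 8.72%, 4.26% and 8.92% of all probe sets. With Jun (1417409_at) 8, 12 and 2 of the 22 reached it, beside 21.9%, 4.29% and 16.6%, and with Junb 1, 10 and 9, beside 5.66%, 5.59% and 17.3%. Jun (1417409_at) had medians of 0.34, 0.57 and 0.16, Junb -0.06, 0.34 and 0.26, and Jund -0.08, 0.05 and -0.22. Jun on 1448694_at gave 0.31 in A, -0.26 in B and -0.19 in C. This comparison was chosen after values had been seen, and all values of a cluster come from the same arrays.

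**Figure D4:**
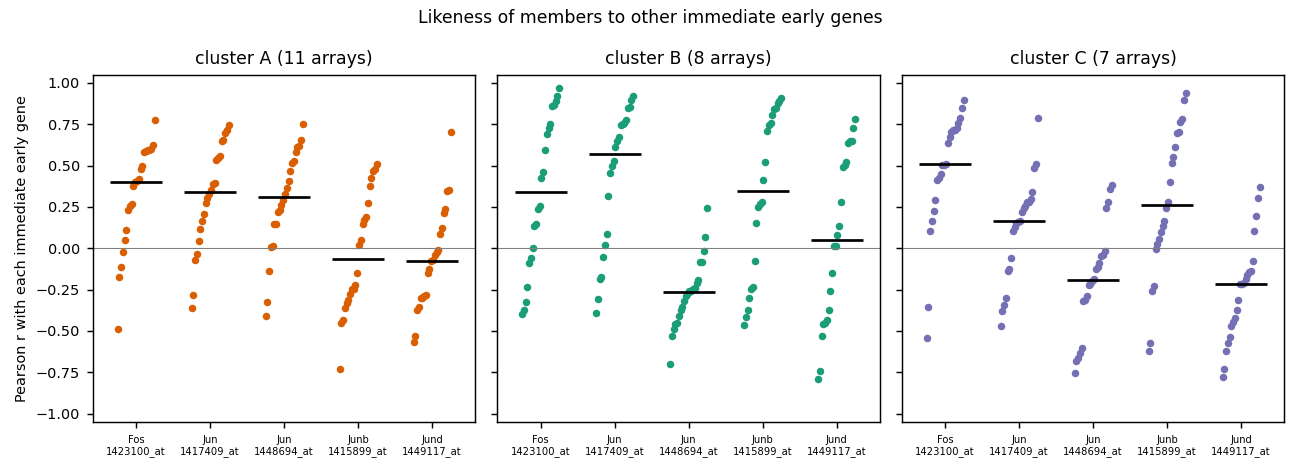
Pearson r, with the means of whole groups removed, between each of the 5 tested Fos and Jun family probe sets and each of 22 other immediate early genes, within array clusters A, B and C. Points are genes in ascending order and lines are medians. The Fos median lies at 0.40, 0.34 and 0.51, and the Jund median at -0.08, 0.05 and -0.22.

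The pathway around AP-1 was read from 6 lists with 108 genes, of which 90 were on the array and 74 were tested. None of the 74 passed the adjusted threshold of limma in any comparison, as for all probe sets. At an unadjusted p under 0.05, 3 of 74 were higher with clozapine than in control (4.05%), 3 were higher and 2 lower with haloperidol than in control (6.76%), and 2 were higher with clozapine than with haloperidol (2.70%), beside 4.35%, 2.3% and 3.14% of all probe sets. The list medians of clozapine minus control lay between 0.00 and 0.15, beside 0.02 over all probe sets tested. No list thus held more than a few genes with a low unadjusted p. Over all tested probe sets, 7153 of 12944 (55.3%) lay above control with clozapine and 5636 (43.5%) with haloperidol, and the counts of each list below are to be read beside these shares. The list medians of haloperidol minus control lay between -0.12 and 0.19, beside -0.03.

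Among the activators of Fos and Jun transcription, Srf, the factor that binds the serum response element of Fos, had the smallest p. On its probe set with the highest mean it was 7.92 ± 0.27 in control, 8.37 ± 0.11 in clozapine and 8.27 ± 0.47 in haloperidol (SD, n = 10 each). Clozapine minus control was 0.45 (SE 0.15, unadjusted p = 0.00445, adjusted p = 0.9997 by limma), with 10 of 10 clozapine arrays above the control mean, and haloperidol minus control was 0.34 (SE 0.15, unadjusted p = 0.0252, adjusted p = 0.9999 by limma), with 9 of 10. With the cluster as a block these were 0.41 and 0.24 (both SE 0.09). The other Srf probe set gave -0.05 and 0.10, so the difference was not shared between the 2. Crebbp, a coactivator of CREB, was 0.22 above control with clozapine (SE 0.11), in 9 of 10 arrays above the control mean, and 0.22 with the cluster as a block. Mrtfa, a cofactor of SRF, was 0.38 (SE 0.25) above control with clozapine and 0.45 (SE 0.25) with haloperidol, and with the cluster as a block 0.21 and 0.15. Of 12 activators tested, 7 lay above control with clozapine and 9 with haloperidol.

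Of the kinases that lead to AP-1, 10 of 14 lay above control with clozapine and 5 of 14 with haloperidol. Map3k5, an upstream kinase of the JNK and p38 pathways, was 5.63 ± 0.78 in control and 4.92 ± 0.69 in haloperidol (SD, n = 10 each), a difference of -0.71 (SE 0.30, unadjusted p = 0.0230, adjusted p = 0.9999 by limma). With clozapine its difference was -0.35 (SE 0.30). The cluster block gave -0.63 for haloperidol and -0.27 for clozapine. Mapk11, a p38 kinase, was 0.40 (SE 0.22) above control with clozapine, and Map2k4, which phosphorylates JNK, was 0.42 (SE 0.21) higher with clozapine than with haloperidol. With the array cluster as a block the Mapk11 value was 0.18 and the Map2k4 value 0.25. The other probe set of each gene gave 0.10 for Mapk11 and 0.047 for Map2k4 in the same comparisons. None of these passed the adjusted threshold.

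Of the relatives that pair with Fos or Jun proteins, 4 of the 13 on the array were tested: Jdp2, Atf2, Atf4 and Mafg. Jdp2, a repressor that binds AP-1 sites, was 0.15 above control with clozapine and 0.21 with haloperidol (both SE 0.13), and 0.054 and 0.037 with the cluster as a block. Mafg was 0.25 above control with clozapine (SE 0.18), whereas its other probe set gave -0.21 and the cluster block 0.079. Of the 8 modifiers of AP-1 proteins, 6 lay above control with clozapine and 3 with haloperidol. Cops5, which binds Jun as a coactivator, was 0.32 higher with clozapine than with haloperidol (SE 0.15, unadjusted p = 0.0364, adjusted p = 0.965 by limma) and 0.08 higher with the cluster as a block. Its other probe set gave 0.091.

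In a list named striatal genes with AP-1 sites, 8 of 14 lay above control with clozapine and 6 with haloperidol. The list was drawn up by gene name, and AP-1 sites of its genes were not looked up here. It also holds Gfap, one of the astrocyte markers, so its counts are not a measure of the striatum alone. Penk, which encodes the opioid precursor proenkephalin, was 10.74 ± 0.36 in control and 11.07 ± 0.21 in haloperidol (SD, n = 10 each), a difference of 0.33 (SE 0.13, unadjusted p = 0.0140, adjusted p = 0.9999 by limma) with 10 of 10 haloperidol arrays above the control mean. Sst, the gene of somatostatin, was 0.31 below control with haloperidol (difference -0.31, SE 0.14, unadjusted p = 0.0402, adjusted p = 0.9999 by limma). The cluster block gave 0.33 for Penk and -0.24 for Sst. Pdyn, which encodes prodynorphin, was 0.10 above control with clozapine (SE 0.09), and 0.068 with the cluster as a block.

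Of the 22 other immediate early genes, 11 lay above control with clozapine and 15 with haloperidol, and 18 lay lower with clozapine than with haloperidol, beside 5086 of 12944 probe sets. The list median of clozapine minus haloperidol was -0.13, against 0.05 over all probe sets tested. All 7 member probe sets were also lower with clozapine, from -0.018 for Jun on 1448694_at to -0.83 for Junb, with Fos at -0.29. The sign turned under several settings for Jun on 1448694_at and for Jund at -0.06. All values come from the same arrays, and several of the 22 genes rise and fall with Fos, so the 18 are not separate counts. The list was not recomputed without haloperidol 2. Egr1, a zinc finger factor of the early response, was 0.24 (SE 0.10, unadjusted p = 0.0252, adjusted p = 0.9997 by limma) above control with clozapine and 0.30 (SE 0.10, unadjusted p = 0.00576, adjusted p = 0.9999) with haloperidol, with 10 of 10 arrays above the control mean in each. The clock gene Per1 was 0.67 (SE 0.30) above control with clozapine. The cluster block gave 0.17 with clozapine and 0.29 with haloperidol for Egr1, and 0.53 with clozapine for Per1. Dusp1, the gene most like Fos, was 0.32 lower with clozapine than with haloperidol (difference -0.32, SE 0.22), and the difference was -0.52 with the cluster as a block.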

How the data were processed

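RNA of 30 right forebrains was hybridised to 1 array each. The deposited log2 values were made by the authors with GCRMA, per the submitters' processing notes; a GCRMA version is not stated in any source used here. GCRMA places probe sets near background in a narrow low range, which shrinks their differences. From these values, 64 Affymetrix controls were left out, names came from the platform's annotation (20380 with 1 symbol, 691 with several, 1555 with none), and those with a mean of at least 4 were fitted with limma 3.58.1 in R 4.3.3 (27 residual degrees of freedom, two-sided). Fosb and Fosl2, below the minimum, take differences and SEs from a fit of all 22626 probe sets. Permutation tests (scipy 1.17.1) used 100000 resamples and are unadjusted. Groups came from the titles. Array clusters came from average linkage on Pearson correlation, 7 clusters. The number of arrays limits the precision. The fit was tested on simulated data with independent noise and no array clusters or outlying arrays, so that test does not cover those.

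The members and lists were chosen with earlier results of these data known. Lists hold 1 probe set per gene, that with the highest mean. Genes named are the members, the 3 most correlated with each member, and from each list some of the 3 with the smallest p per comparison. Normalization, filters, blocks, RNA quality, array weights and left-out arrays were alternatives. Proteins were not analysed here.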

Additional observations from a re-analysis of the deposited data

Results flagged for a closer look

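In 21 groups of 10 arrays, 9 had an array far from the others by Dixon's test. Chance does so in about 1 in 20 independent groups of normally distributed values. The 21 groups are 7 probe sets read on the same 30 arrays, and control 1, control 6 and haloperidol 2 recur, so the flags are not independent. Fosb was high on control 6 at 4.20, on clozapine 1 at 3.93 and on haloperidol 2 at 7.27. Fosl2 was high on clozapine 2 at 2.98, below the minimum of 4. Jun on 1417409_at was low on control 1 at 7.39 and on haloperidol 7 at 7.36, the arrays with the largest 3′ excess. Jun on 1448694_at was low on control 1 at 6.27. Jund was low on control 6 at 9.56 and high on haloperidol 2 at 10.85.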

How the results depend on the processing

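Of 267 member differences recomputed under the alternatives, 248 kept their direction and 19 turned; no tested one passed the adjusted threshold. For Fosb, which had no limma test, clozapine minus control turned from -0.0029 to 0.094 with array weights and 0.025 with the cluster block. Haloperidol minus control reversed for Jun on 1417409_at with the array cluster as a block (-0.092), with the RNA quality covariate (-0.10), without control replicate 1 (-0.12) and without haloperidol replicate 2 (-0.0033), and on 1448694_at with the cluster block (-0.085) and without the 3 outlying arrays (-0.062). Clozapine minus control reversed on 1448694_at with the cluster block (-0.052). Clozapine minus haloperidol reversed on 1448694_at with array weights (0.082), the cluster block (0.033), the RNA quality covariate (0.0027), without haloperidol replicate 2 (0.01), without haloperidol replicate 7 (0.044) and without the 3 outlying arrays (0.085), and for Jund with array weights (0.0044), the cluster block (0.042), without haloperidol replicate 2 (0.0086) and without the 3 outlying arrays (0.0076). All of these turned values lay within 1 SE of 0, and the cause was not tested. Leaving out 1 of the outlying arrays at a time gave haloperidol minus control up to 0.18 for Jun on 1417409_at, and clozapine minus haloperidol down to -0.018 for Jun on 1448694_at and to -0.071 for Jund.

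Over all probe sets, array weights gave 1731 calls for clozapine against control (863 higher, 868 lower) with no member among them, and the cluster block gave 1 for haloperidol against control; the cause was not tested. Comparisons of members with a permutation p under 0.05 numbered 2 of 21, 4 without haloperidol replicate 7 and 5 without the 3 outlying arrays; the added ones were of Jun on 1417409_at, Junb and Fosl2. Probe sets at an unadjusted limma p under 0.05 in clozapine against haloperidol went from 406 to 1363 and 2300 of 12944 in the same settings. Over settings that leave out an array, member comparisons with a permutation p under 0.05 ran from 2 to 5. With the next Jun probe set, Jun and Junb in B gave r = 0.11 and 0 of 18 relations passed. With the replicate number as a block (replicate block), limma made 0 calls in all 3 comparisons, with 846, 540 and 642 probe sets at an unadjusted p under 0.05; the SE of Junb was 0.50 in place of 0.70. Same-numbered arrays of different groups had a median r of 0.16, against -0.13 for other numbers; the numbers were not taken to pair the arrays, since only 17 of 30 same-numbered pairs correlated above 0.1, and 4 of 30 arrays correlated best with their own number.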

Other observations

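Junb differed between arrays with low and high replicate numbers, which the labels tie to no batch. It averaged 8.38 ± 1.52 (SD, n = 18) over replicates 1 to 6 of the 3 groups and 6.53 ± 1.07 (SD, n = 12) over replicates 7 to 10, where the highest array was 7.94. All 11 arrays of cluster A, the arrays with high Junb, have replicate numbers from 1 to 6. This difference is therefore not separate from that between clusters. Fos averaged 9.95 ± 0.34 and 9.85 ± 0.55 over the same arrays, and Jund 10.09 ± 0.26 and 10.16 ± 0.14. With this split as a block, the SE of a Junb difference was 0.58 in place of 0.70, and the differences were the same since the groups hold equal numbers of each.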
